A study of Homo sapiens with 15 samples.

Results

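The nuclear genes for the structural subunits of the mitochondrial respiratory chain and ATP synthase were described across 5 lines of the ovarian cancer cell line OVCAR4. Members were chosen by symbol: protein-coding rows named NDUFA, NDUFB, NDUFC, NDUFS or NDUFV (complex I), SDHA to SDHD (complex II), UQCR or CYC1 (complex III), COX4I or COX5 to COX8 (complex IV) and ATP5 (complex V). The rule gave 82 of the 16604 genes in the deposited table: 38 of complex I, 4 of complex II, 9 of complex III, 12 of complex IV and 19 of complex V. Of 91 protein-coding genes that the rule fits in the annotation, 9 were not analysed here, among them UQCRH and the tissue-restricted isoforms COX4I2, COX6A2, COX6B2, COX7B2 and COX8C. The 13 subunits encoded by mitochondrial DNA were not analysed here either. All 82 genes entered every test, with no filter on low values.

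The respiratory chain sits in the inner mitochondrial membrane. Complex I takes electrons from NADH and complex II takes them from succinate, ubiquinone carries them to complex III, cytochrome c carries them to complex IV, and complex IV passes them to oxygen. Complexes I, III and IV pump protons, and complex V, the ATP synthase, makes ATP from the gradient. A few core subunits carry the redox centres and catalysis, and many small nuclear-encoded subunits surround them. Nuclear subunit genes are often expressed together, and factors of the NRF1, ETS and SP families are known to bind many of their promoters.

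OVCAR4 is a line of high grade serous ovarian cancer. Ovcar4Parental is the platinum sensitive parent, Ov4Cis is cisplatin resistant, Ov4Carbo is carboplatin resistant, and the lines Ov4Carbo4 and Ov4Carbo7 each descend from a single-cell clone of Ov4Carbo. The resistant lines were obtained by growing cells in rising amounts of the drug, so each is 1 selected line and its 3 replicates do not sample independent selections. All were grown in DMEM with serum, and RNA was read after polyA capture, with 3 samples a line and 15 in all. Values are the authors' log2 RPKM (reads per gene length and library size, on a log2 scale) after conditional quantile normalization, which corrects for gene length and GC content. A difference of 1 in log2 RPKM is a change by a factor of 2, and the depth of the samples is unknown. The serous marker PAX8 lay between 5.85 and 6.74 in the 5 line means, while EPCAM ranged from 1.17 in Ov4Cis to 5.98 in Ovcar4Parental and WT1 was at -1.52 or lower in all 5.

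The promoters of 4 members that recur below are shown first: SDHD was lower in Ov4Carbo4, SDHA differed in direction between lines, ATP5PD was higher in all 4 resistant lines, and UQCR11 was higher in Ov4Carbo and Ov4Carbo7. Each is the 250 bases before the RefSeq gene start in GRCh38.p14, 5′ to 3′ on the gene's strand, and capitals mark matches to the NRF1 letters (GCGCA, any base, then GCGC), to CCGGAAG (ETS) or to GGGCGG (SP) on either strand. SDHD lies at chr11:112086623-112086872 on the + strand, SDHA at chr5:218070-218319 on the + strand, ATP5PD at chr17:75046970-75047219 on the - strand, and UQCR11 at chr19:1605463-1605712 on the - strand.
SDHD: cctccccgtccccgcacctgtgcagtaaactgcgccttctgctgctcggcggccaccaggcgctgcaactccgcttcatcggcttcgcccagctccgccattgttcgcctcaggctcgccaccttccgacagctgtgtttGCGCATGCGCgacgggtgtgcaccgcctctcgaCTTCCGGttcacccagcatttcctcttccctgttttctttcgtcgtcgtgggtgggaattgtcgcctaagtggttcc
SDHA: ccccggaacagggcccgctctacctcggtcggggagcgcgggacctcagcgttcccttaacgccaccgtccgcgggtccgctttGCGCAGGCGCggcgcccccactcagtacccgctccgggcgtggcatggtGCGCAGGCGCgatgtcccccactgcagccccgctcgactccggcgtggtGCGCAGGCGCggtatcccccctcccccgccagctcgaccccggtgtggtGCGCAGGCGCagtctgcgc
ATP5PD: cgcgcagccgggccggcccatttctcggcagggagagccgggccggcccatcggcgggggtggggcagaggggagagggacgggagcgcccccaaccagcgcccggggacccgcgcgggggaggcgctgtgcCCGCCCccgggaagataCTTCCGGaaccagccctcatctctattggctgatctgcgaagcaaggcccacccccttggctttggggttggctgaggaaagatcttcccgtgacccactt
UQCR11: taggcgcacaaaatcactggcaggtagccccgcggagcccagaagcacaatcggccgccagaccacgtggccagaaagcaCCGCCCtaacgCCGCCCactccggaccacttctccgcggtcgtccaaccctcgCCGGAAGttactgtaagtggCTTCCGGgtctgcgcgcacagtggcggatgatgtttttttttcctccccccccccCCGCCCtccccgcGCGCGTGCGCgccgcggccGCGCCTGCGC

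RefSeq's table held a promoter for 64 of the 82 members. The NRF1 letters stood in 14 of the 64 (21.9%), against 5.5% of all 27303 promoters in the table, the ETS letters in 16 (25.0%, against 8.8%) and the SP letters in 37 (57.8%, against 42.3%). The members' median GC content was 61.2% against 58.0%, and their median number of CpG dinucleotides was 19 against 11. All 3 motifs are GC-rich. A match is a description of letters, and each of the 4 promoters printed above holds at least 1. Of other members named below, NDUFS8, NDUFV1, NDUFAB1, ATP5MC1 and ATP5MC2 hold no match to any of the 3 motifs. NDUFS6 and NDUFS7 hold the SP letters only, and UQCRC1 holds the NRF1 and SP letters.

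The table's samples had medians of 2.77 log2 RPKM each, so a shift of all genes together cannot be seen. The sample titles carry numbers from 2 series: 7 samples (Ov4Carbo replicate 1 and all of Ov4Carbo4 and Ov4Carbo7) have numbers of the first, and 8 (all of Ovcar4Parental and Ov4Cis, and Ov4Carbo replicates 2 and 3) of the second. The labels do not say what the series are. They call the samples biological replicates, and p-values measure the spread between these samples only. Ov4Carbo4 and Ov4Carbo7 against Ovcar4Parental lie wholly across them, so line and series cannot be told apart there; Ov4Cis against Ovcar4Parental and Ov4Carbo7 against Ov4Carbo4 lie within 1 series. Ov4Carbo replicate 2 stood apart for the members: 60 of 82 had their highest Ov4Carbo value there, against 33.2% of the 12037 genes with a mean of at least 1, and 48 had their highest value of all 15 samples there, against 16.2%. In bulk samples, fewer cells that express a gene and less RNA per cell cannot be told apart.

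Most members were well expressed. The median of the members' means over the 15 samples was 4.85 log2 RPKM, against 2.76 over all genes, and 76 of 82 had a mean of at least 1. RPKM is per length, which allows a rough comparison of levels between genes. Reads of a gene and of its near-identical copies are hard to tell apart, so ranks of genes with such copies are uncertain. The copy ATP5MKP1, for example, was at 3.95, above its gene ATP5MK. In complex V the catalytic beta subunit ATP5F1B had the highest mean of all members, 8.58, and the small membrane subunit ATP5MK the lowest of that complex, 2.67. In complex III UQCRQ was highest, at 7.89. In complex IV COX5B led at 7.11, and in complex I NDUFV1, which holds the flavin site where NADH is oxidised, led at 6.36. Within complex II the iron-sulfur subunit SDHB had the highest mean, 5.25, and the flavoprotein SDHA the lowest, 4.06. The other 6 members had means below 1: NDUFV2 at -2.02, NDUFA4L2 at -1.91, NDUFA13 at -1.81, UQCRHL at -0.96, COX7A1 at -0.49 and NDUFB8 at 0.56. NDUFV2 and NDUFA13 are core or essential complex I subunits, and their low rows are taken up with the pseudogenes below.

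**Figure D1:**
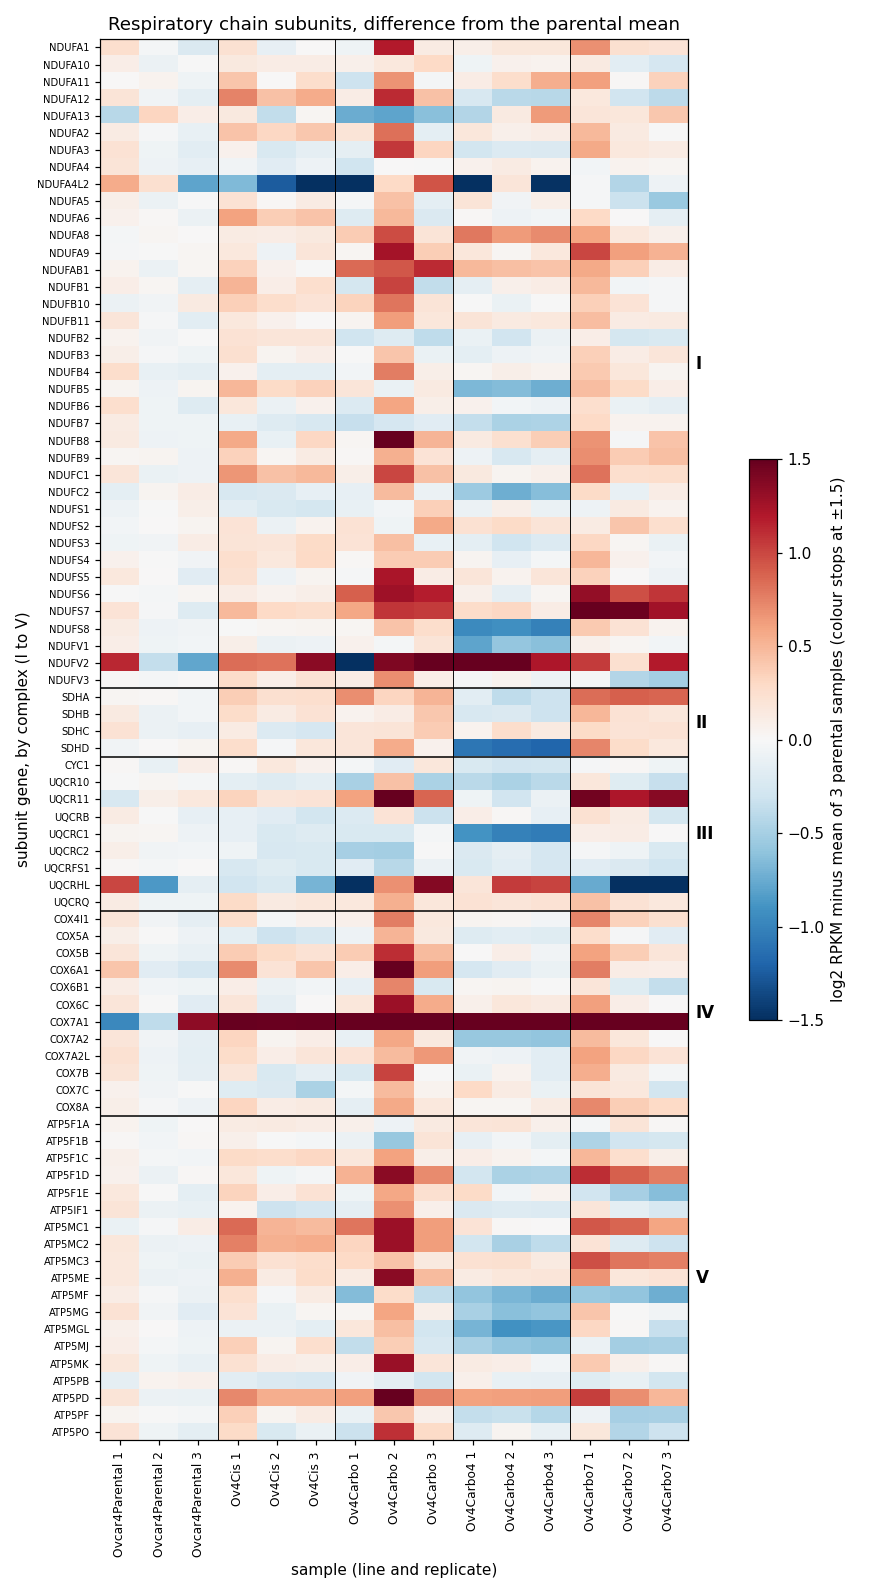
Difference of log2 RPKM from the mean of the 3 Ovcar4Parental samples for the 82 subunit genes (rows, grouped by complex I to V) in the 15 samples (columns); red is higher, blue is lower, and colours stop at ±1.5. Ov4Carbo replicate 2 is the reddest column, COX7A1 is red in every resistant sample, and a block of complex I to III genes including SDHD, NDUFS8 and UQCRC1 is blue in Ov4Carbo4.

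Fewer members differed among the 5 lines than genes at large. By limma's moderated F-test at an adjusted p under 0.05, 36 of 82 members (43.9%) differed among the lines, against 76.9% of all genes. The count was 15 of 38 in complex I, 3 of 4 in complex II, 3 of 9 in complex III, 4 of 12 in complex IV and 11 of 19 in complex V. The range of the 5 line means had a median of 0.55 log2 over the members. It was smallest for ATP5F1A, the catalytic alpha subunit (0.15), NDUFB6 (0.17) and NDUFA4 (0.18), and largest for COX7A1 (7.12), UQCRHL (3.19) and NDUFV2 (1.64). The last 3 all have a mean level below 1. Of the members with a mean of at least 1, SDHD had the widest range, 1.53, followed by UQCR11 (1.49) and NDUFS7 (1.44).

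**Figure D2:**
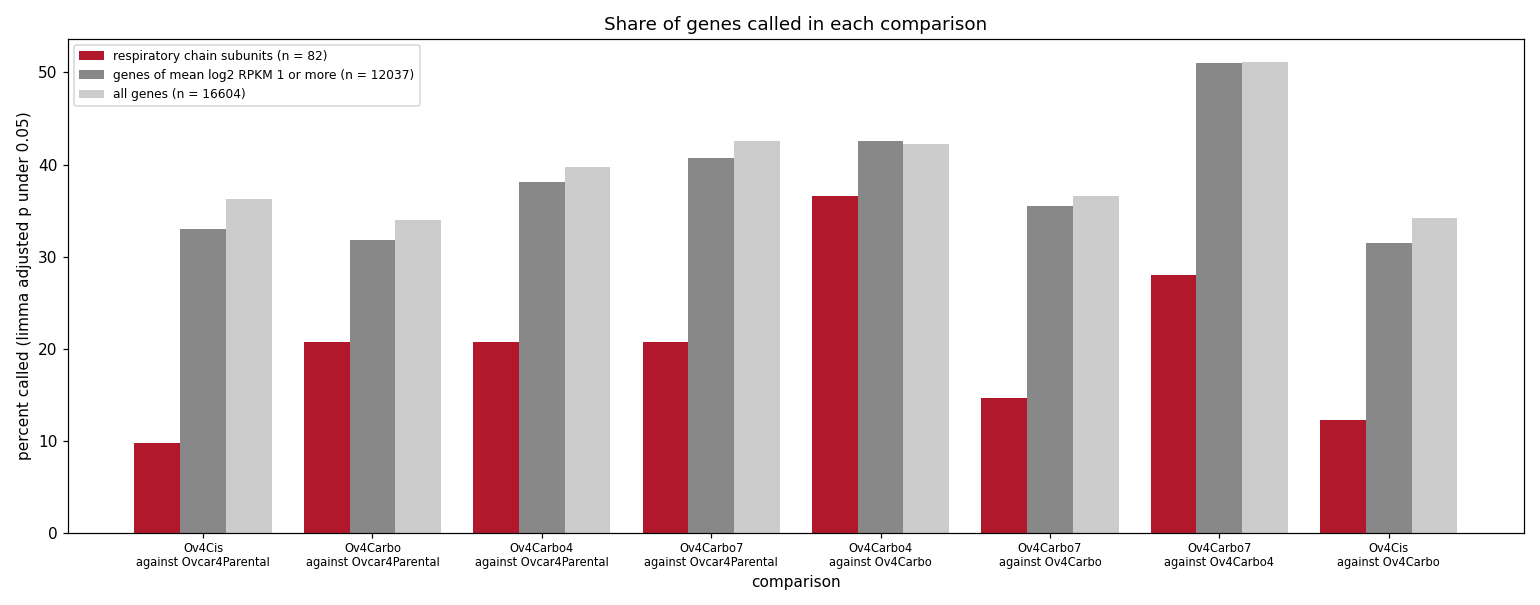
Percent of genes called by limma (adjusted p under 0.05) in each of the 8 comparisons, for the 82 subunits, the 12037 genes of mean log2 RPKM 1 or more and all 16604 genes. The subunits' bar is the lowest of the 3 in every comparison, and comes closest to the others in Ov4Carbo4 against Ov4Carbo (36.6% against 42.2% of all genes).

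In Ov4Cis, the cisplatin-resistant line, 8 of 82 members were called higher than in Ovcar4Parental by limma at an adjusted p under 0.05, and 0 were called lower. Among all genes 36.2% were called, 19.8% higher and 16.4% lower. The members' median log2 fold change was 0.12, against 0.04 over all genes. All 3 genes for the c subunit of the proton-driven ring of ATP synthase were among the 8: ATP5MC1 rose by 0.61 (SE 0.16, adjusted p = 0.0112), ATP5MC2 by 0.62 (SE 0.21, adjusted p = 0.0356) and ATP5MC3 by 0.29 (SE 0.10, adjusted p = 0.0453). ATP5MC1 was at 5.80, 5.47 and 5.44 log2 RPKM in the Ov4Cis samples and at 4.86, 4.95 and 5.07 in the parental ones. ATP5MC2 was at 5.43, 5.21 and 5.23 against 4.84, 4.59 and 4.59. The groups did not overlap for either. The others were COX7A1, ATP5PD, SDHA, NDUFA6 (0.47, adjusted p = 0.0498) and NDUFB5 (0.38, adjusted p = 0.0184), both small complex I subunits. Complex III had 0 of 9 called. Several of these sit near the threshold: the count of 8 was 1 without Ov4Cis replicate 1, 2 without Ovcar4Parental replicate 2, 3 without Ovcar4Parental replicate 3, Ov4Cis replicate 2 or Ov4Cis replicate 3, 4 without Ov4Carbo4 replicate 3, Ov4Carbo7 replicate 2 or Ov4Carbo7 replicate 3, 5 without Ovcar4Parental replicate 1, Ov4Carbo4 replicate 1 or Ov4Carbo4 replicate 2, and 13 without Ov4Carbo replicate 2. COX7A1 was called in all 15 of these fits, while ATP5MC3 lost its call in 10 of them, ATP5MC2 in 5 and ATP5MC1 in 1. The 20 expressed protein-coding genes nearest to each c subunit gene, other members left out, also had positive median changes. These medians were 0.50 for ATP5MC1, 0.36 for ATP5MC2 and 0.22 for ATP5MC3.

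In Ov4Carbo, the carboplatin-resistant line, 16 members were called higher than in Ovcar4Parental and 1 lower, against 34.0% of all genes (17.7% higher, 16.2% lower). The median log2 fold change was 0.24, against 0.03 over all genes, and 66 of 82 members had a positive value. The called members came from every complex: 5 higher and 1 lower in complex I, 1 in complex II, 1 in complex III, 4 in complex IV and 5 in complex V. NDUFS6, a small complex I subunit that binds zinc, was at 3.97, 4.35 and 4.25 log2 RPKM in Ov4Carbo and at 3.08, 3.05 and 3.11 in the parental line. It rose by 1.11 (SE 0.12, limma adjusted p = 2.26e-05), with no overlap. UQCR11, a small subunit of complex III, was at 1.88, 2.88 and 2.15 against 1.03, 1.36 and 1.44, and rose by 1.02 (SE 0.20, adjusted p = 0.00239). NDUFAB1, the mitochondrial acyl carrier protein that is also part of complex I, rose by 0.97 (SE 0.13, adjusted p = 0.000141). The lone lower call, NDUFA13 (-0.72, adjusted p = 0.0411), was a gene of mean -1.81 and lost its call in 10 of the 15 fits that leave out 1 sample.

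The size of this difference rested on which Ov4Carbo sample was in the fit. The median difference of the 82 members from the parental mean was 0.02 in replicate 1, 0.57 in replicate 2 and 0.17 in replicate 3. Without replicate 2, which is the high one, 12 members were called higher and 3 lower and the median fell to 0.09. Without replicate 1, which leaves the comparison within 1 series of titles, 29 were called higher and 0 lower and the median was 0.35. The count was 10 without Ovcar4Parental replicate 2 and 11 without Ovcar4Parental replicate 3. NDUFS6 (1.03 without replicate 2, 1.22 without replicate 1), UQCR11 (0.74 and 1.23), NDUFAB1 (0.98 and 1.03) and ATP5F1D (0.62 and 1.03) were called either way. COX6A1, the usual isoform of a complex IV subunit, was chosen as an example after its values were seen. Its samples were at 4.42, 6.08 and 4.94 against 4.73, 4.15 and 4.07, and the difference of 0.83 was not called (adjusted p = 0.0844).

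The members were not the only genes that were high in that sample. The median difference from the parental mean in Ov4Carbo replicate 2 was 0.46 for 77 mitochondrial ribosomal protein genes, 0.45 for 48 assembly factors of the chain and 0.41 for 77 cytosolic ribosomal protein genes, against -0.08 for the 19 TCA cycle genes and 0.01 for all genes of mean 1 or more. Among the members, the 41 shorter genes stood 0.69 above the mean of replicates 1 and 3 in median, and the 41 longer ones 0.42. A first replicate that is high was also seen elsewhere: 70 of 82 members were highest in replicate 1 of Ov4Cis, 70 in replicate 1 of Ov4Carbo7 and 63 in replicate 1 of Ovcar4Parental. The median SD of a member over 3 replicates was 0.34 in Ov4Carbo and 0.21 in Ov4Carbo7, against 0.24 and 0.13 for genes of mean 1 or more, and 0.07 to 0.11 in the other lines. The part of this shared spread in the counts above was not tested.

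**Figure D3:**
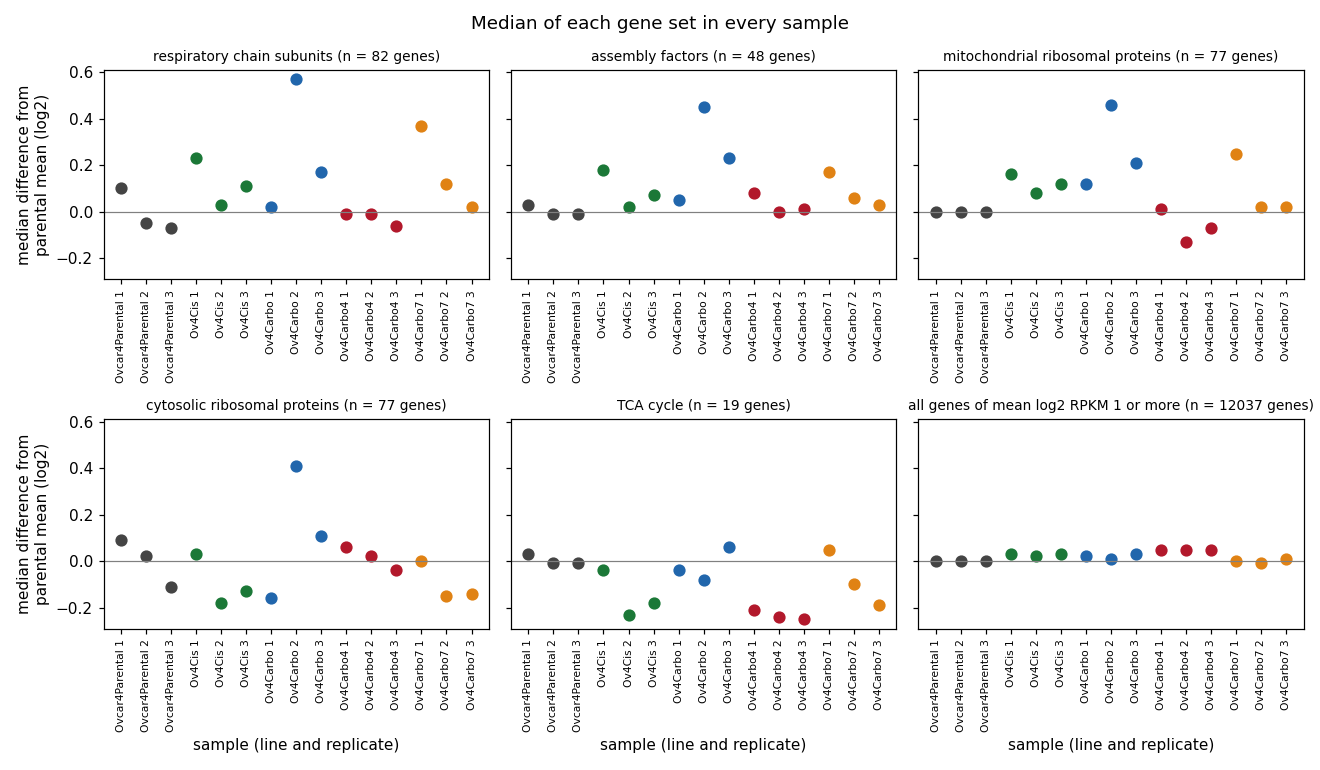
Median difference from the Ovcar4Parental mean (log2) of 6 gene sets in each of the 15 samples; each point is 1 sample and colours mark lines. The subunits reach 0.57 in Ov4Carbo replicate 2 and 0.37 in Ov4Carbo7 replicate 1, assembly factors and both ribosomal protein sets peak in the same Ov4Carbo sample, and the set of all genes of mean 1 or more stays between -0.01 and 0.05.

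Ov4Carbo4, a line from a single-cell clone of Ov4Carbo, was the line in which most called members were lower: 13 of 82 were lower than in Ovcar4Parental and 4 higher, against 18.0% lower and 21.6% higher over all genes (39.7% in all). The median over the members was -0.02, against 0.07 over all genes. Members of every complex were among those that fell. SDHD, one of the 2 membrane anchors of succinate dehydrogenase (ENSG00000204370), was at 3.47, 3.40 and 3.36 log2 RPKM in Ov4Carbo4 and at 4.50, 4.56 and 4.59 in the parental line. It fell by 1.14 (SE 0.16, limma adjusted p = 0.000116). No Ov4Carbo4 sample came near any other: the lowest of the other 12 samples was 4.50. UQCRC1, a core subunit of complex III (ENSG00000010256), was at 5.06, 4.94 and 4.90 against 6.00, 5.98 and 5.89, and fell by 0.99 (SE 0.09, adjusted p = 3.38e-06). NDUFS8, an iron-sulfur subunit of complex I (ENSG00000110717), was at 4.56, 4.60 and 4.50 against 5.64, 5.45 and 5.47, and fell by 0.96 (SE 0.12, adjusted p = 4.22e-05). For all 3, the 3 Ov4Carbo4 samples were the lowest of the 15.

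Other complex I genes that fell in Ov4Carbo4 were NDUFV1 (-0.67, adjusted p = 0.000177), NDUFB5 (-0.68, adjusted p = 0.000409), NDUFC2 (-0.64, adjusted p = 0.0058) and NDUFB7 (-0.43, adjusted p = 0.00383). In complex IV COX7A2 fell by 0.57 (adjusted p = 0.0177). In complex V the small membrane subunits ATP5MGL (-0.83), ATP5MF (-0.67), ATP5MG (-0.57) and ATP5MJ (-0.56) fell, with adjusted p from 0.00317 to 0.0252. The genes that rose were COX7A1, ATP5PD, NDUFA8 (0.71, SE 0.18, adjusted p = 0.00702) and NDUFAB1 (0.45, adjusted p = 0.0141). NDUFA8, a supernumerary complex I subunit, was at 4.59, 4.43 and 4.50 against 3.76, 3.83 and 3.80. The sample of Ov4Carbo with a title of the same series, replicate 1, had SDHD at 4.73, UQCRC1 at 5.73 and NDUFS8 at 5.55. That is 1 sample of another line. No parental sample has a title of this series, so line and series cannot be told apart in the comparison with Ovcar4Parental. A term for the series moved the median over the members from -0.02 to 0.27. Only Ov4Carbo has samples of both series, so this term rests on its replicate 1 against its replicates 2 and 3. The members' median difference from the parental mean was 0.02, 0.57 and 0.17 in these replicates.

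**Figure D4:**
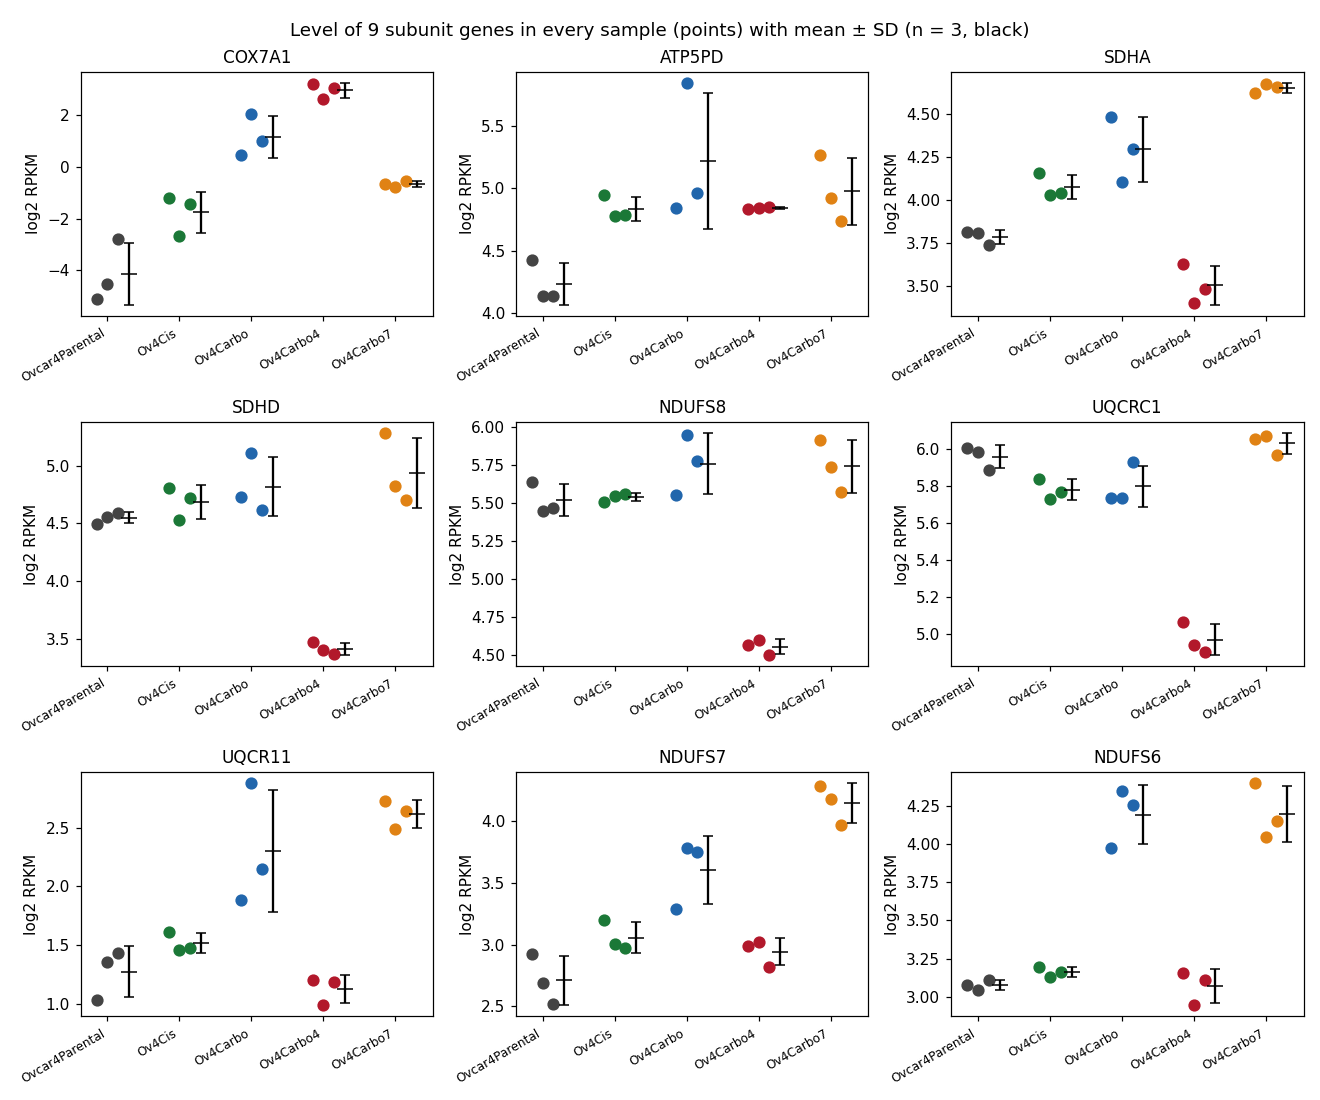
Log2 RPKM of 9 subunit genes in every sample of the 5 lines (points), with the mean and SD of each line's 3 samples in black; the axes differ between panels and do not start at 0. SDHD, NDUFS8 and UQCRC1 are lowest in all 3 Ov4Carbo4 samples, while UQCR11, NDUFS7 and NDUFS6 are high in Ov4Carbo and Ov4Carbo7 and near the parental level in Ov4Carbo4.

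Ov4Carbo7, from another clone of the same line, went largely the other way: 14 of 82 members were called higher than in Ovcar4Parental and 3 lower, against 22.2% higher and 20.4% lower over all genes (42.6% in all). The median over the members was 0.19, against 0.02. NDUFS7, an iron-sulfur subunit of complex I (ENSG00000115286), was at 4.29, 4.18 and 3.97 log2 RPKM in Ov4Carbo7 and at 2.92, 2.69 and 2.52 in the parental line. It rose by 1.44 (SE 0.15, limma adjusted p = 1.13e-05). UQCR11 was at 2.72, 2.48 and 2.64 and rose by 1.34 (SE 0.20, adjusted p = 0.000221). NDUFS6 was at 4.40, 4.04 and 4.15 and rose by 1.12 (SE 0.12, adjusted p = 1.08e-05). None of the 3 overlapped the parental samples. In complex V, ATP5F1D, the delta subunit of the central stalk, rose by 0.92 (adjusted p = 0.00122), ATP5MC3 by 0.84 (adjusted p = 3.97e-05) and ATP5MC1 by 0.80 (adjusted p = 0.0019).

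The lower calls in Ov4Carbo7 were ATP5MF (-0.63, SE 0.18, adjusted p = 0.0155), ATP5F1E, the epsilon subunit of the central stalk (-0.47, SE 0.16, adjusted p = 0.0322), and UQCRHL (-2.44, adjusted p = 0.0415). ATP5F1E was at 5.11, 4.91 and 4.76 in Ov4Carbo7, below every other sample of the 15. UQCRHL, a gene derived from that of the complex III hinge protein, overlapped the parental samples and lay below 1 log2 RPKM throughout. Of the 15 fits that leave out 1 sample, UQCRHL lost its call in 10, ATP5F1E in 4 and ATP5MF in 1. The count of 17 was 11 without Ovcar4Parental replicate 2, Ovcar4Parental replicate 3 or Ov4Carbo7 replicate 2 and 27 without Ov4Carbo replicate 2.

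The clones were also compared with each other. In Ov4Carbo7 against Ov4Carbo4, which lies within 1 series of titles and does not use the parental samples, 20 of 82 members were higher and 3 lower, against 24.0% higher and 27.1% lower over all genes (51.1% in all), and 10 of the 82 differed by at least 1, against 20.9% of all genes. The median over the members was 0.18, against -0.05 over all genes. The difference was 1.53 for SDHD (SE 0.16, limma adjusted p = 7.42e-06), 1.49 for UQCR11 (SE 0.20, adjusted p = 7.27e-05) and 1.33 for ATP5F1D (SE 0.18, adjusted p = 5.98e-05). ATP5F1D was at 5.41, 5.21 and 5.08 in Ov4Carbo7 and at 4.03, 3.84 and 3.85 in Ov4Carbo4. Every complex had members on the higher side: 8 in complex I, 3 in complex II, 2 in complex III, 2 in complex IV and 5 in complex V. Those lower in Ov4Carbo7 were COX7A1, UQCRHL and ATP5F1E (-0.57, adjusted p = 0.00998). The count was 35 without Ov4Carbo replicate 2.

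Against Ov4Carbo, the line both clones came from, Ov4Carbo4 had 28 members lower and 2 higher, against 19.2% lower and 23.1% higher over all genes (42.2% in all), with a median of -0.33 against 0.04. SDHD changed by -1.41 (SE 0.16, limma adjusted p = 3.38e-05), ATP5F1D by -1.27 (SE 0.18, adjusted p = 0.000172) and NDUFS8 by -1.21 (SE 0.12, adjusted p = 1.1e-05). The 2 higher genes were COX7A1 and NDUFA13. Without Ov4Carbo replicate 2 the count was 22 lower and 3 higher and the median was -0.14, and without replicate 1 it was 39 lower and 1 higher with a median of -0.51. This comparison lies partly across the title series, and with a term for the series 15 members were called and the median was -0.04. Ov4Carbo7 had 7 members lower and 5 higher than Ov4Carbo, against 36.6% of all genes called, with a median of -0.04. That balance turned with the samples used: without Ov4Carbo replicate 2 it was 9 higher and 5 lower and the median was 0.07, without Ov4Carbo replicate 1 it was 5 higher and 13 lower and the median was -0.15, and with a series term 6 were called and the median was 0.15. The median was -0.15 without Ov4Carbo7 replicate 1 and 0.01 without Ov4Carbo7 replicate 3. Its c-ring genes went apart: ATP5MC2 changed by -0.85 (SE 0.21, adjusted p = 0.00757) and ATP5MC3 by 0.55 (SE 0.10, adjusted p = 0.00145). NDUFS7 changed by 0.54 (SE 0.15, adjusted p = 0.0144) and NDUFB7 by 0.39 (SE 0.10, adjusted p = 0.00787).

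The lines selected with the 2 drugs were set against each other directly. In Ov4Cis against Ov4Carbo, 1 member was higher and 9 were lower, against 34.2% of all genes called (18.1% higher, 16.1% lower), with a median of -0.13. NDUFS6 was lower in Ov4Cis (-1.03, SE 0.12, limma adjusted p = 3.05e-05), as were ATP5F1D (-0.84, SE 0.18, adjusted p = 0.00338) and NDUFAB1 (-0.83, SE 0.13, adjusted p = 0.000361). NDUFB2, a small complex I subunit, was the higher one: it was at 5.58, 5.53 and 5.54 in Ov4Cis and at 5.05, 5.17 and 4.98 in Ov4Carbo (0.48, SE 0.11, adjusted p = 0.00417). The count was 22 without Ov4Carbo replicate 1, 6 without Ov4Cis replicate 3, and 5 higher with 6 lower without Ov4Carbo replicate 2.

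COX7A1 had by far the widest range of the members. It is the heart and skeletal muscle isoform of a small complex IV subunit, and COX7A2 is the isoform of most other tissues. COX7A1 (ENSG00000161281) was at -5.11, -4.52 and -2.80 log2 RPKM in the Ovcar4Parental samples, at -1.19, -2.67 and -1.44 in Ov4Cis, at 0.45, 2.06 and 0.99 in Ov4Carbo, at 3.21, 2.65 and 3.06 in Ov4Carbo4, and at -0.65, -0.79 and -0.53 in Ov4Carbo7. The order of the line means was Ovcar4Parental, Ov4Cis, Ov4Carbo7, Ov4Carbo, Ov4Carbo4, and no 2 lines overlapped. Its rise over the parental line was 2.38 for Ov4Cis (SE 0.56, limma adjusted p = 0.00492), 5.31 for Ov4Carbo (adjusted p = 2.37e-05), 7.12 for Ov4Carbo4 (adjusted p = 1.32e-06) and 3.49 for Ov4Carbo7 (adjusted p = 0.000313). The 4 comparisons share the parental samples, where the gene is near the bottom of the table's range (the sample minima lay between -8.18 and -7.68). Ov4Carbo4 and Ov4Carbo7 do not need those samples: Ov4Carbo7 against Ov4Carbo4 was -3.63 (adjusted p = 0.00017). Ov4Carbo4 against Ov4Carbo was 1.80 (adjusted p = 0.0212) and was not called without Ov4Carbo replicate 1 (1.44, adjusted p = 0.0699), Ov4Carbo replicate 3, Ov4Carbo4 replicate 1 or Ov4Carbo4 replicate 3. Ov4Carbo7 against Ov4Carbo was -1.83 (adjusted p = 0.0225) and was not called without Ov4Carbo replicate 2 (-1.38, adjusted p = 0.0947) or without any 1 of the Ov4Carbo7 samples.

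The ratio of the isoforms therefore moved by line. COX7A1 minus COX7A2 was -8.72 ± 1.34 (SD, n = 3) in Ovcar4Parental, -6.50 ± 0.68 in Ov4Cis, -3.61 ± 0.47 in Ov4Carbo, -5.46 ± 0.30 in Ov4Carbo7 and -1.03 ± 0.29 in Ov4Carbo4. COX7A2 (ENSG00000112695) was at 4.01, 4.01 and 3.98 in Ov4Carbo4 and at 4.76, 4.52 and 4.45 in the parental line, so in Ov4Carbo4 one isoform rose and the other fell. The related supercomplex factor COX7A2L was at 5.20 ± 0.20 in Ovcar4Parental and 5.10 ± 0.06 in Ov4Carbo4. The muscle marker DES was at -0.65 in Ovcar4Parental and -0.62 in Ov4Carbo4, and at -2.49 in Ov4Cis, -1.58 in Ov4Carbo and -1.30 in Ov4Carbo7, and ACTA1, MYH7, CKM and MB were not analysed here. For the 20 expressed genes nearest to COX7A1 on chromosome 19, the median log2 fold change against Ovcar4Parental was 0.14 in Ov4Carbo4, 0.27 in Ov4Cis, 0.18 in Ov4Carbo and -0.38 in Ov4Carbo7.

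For the other isoform pairs of complex IV, COX4I2, COX6A2, COX6B2, COX7B2 and COX8C were not analysed here, so an exchange could not be seen. The pair NDUFA4L2 and NDUFA4 could be compared. NDUFA4L2, a hypoxia-induced relative of NDUFA4, was between -2.54 and -1.32 in all line means, and the difference from NDUFA4 was -5.33 in Ovcar4Parental and -6.45 in Ov4Cis. It was not called in any of the 8 comparisons. NDUFA4, now known as a complex IV subunit, was likewise called in none, with line means from 3.91 to 4.09. The usual isoforms COX4I1, COX6B1 and COX7B were not called against the parental line in any resistant line, and COX8A was called in Ov4Carbo7 (0.46, limma adjusted p = 0.0354). ATP5IF1, the inhibitor of reverse ATP hydrolysis by ATP synthase, was at 5.79 ± 0.17 in Ovcar4Parental and at 5.59 ± 0.02 to 6.00 ± 0.43 in the resistant lines, with no call.

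ATP5PD, the d subunit of the peripheral stalk of ATP synthase (ENSG00000167863), was with COX7A1 the only member called higher in all 4 resistant lines; 4.49% of all genes were. It was at 4.42, 4.14 and 4.13 log2 RPKM in Ovcar4Parental, 4.95, 4.78 and 4.78 in Ov4Cis, 4.84, 5.85 and 4.97 in Ov4Carbo, 4.83, 4.84 and 4.85 in Ov4Carbo4, and 5.27, 4.92 and 4.73 in Ov4Carbo7. All 12 resistant samples were above all 3 parental ones. The differences were 0.60 (limma adjusted p = 0.049), 0.99 (adjusted p = 0.0048), 0.61 (adjusted p = 0.0437) and 0.74 (adjusted p = 0.0167) in that order, all against the same 3 samples, and the Ov4Cis call was lost in 11 and the Ov4Carbo4 call in 9 of the 15 fits that leave out 1 sample. Its 20 neighbours on chromosome 17 had median changes of 0.55, 0.62, 0.67 and 0.71 in the same lines. No member was called lower in all 4, against 3.26% of all genes.

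The 4 genes of complex II did not move as a unit. SDHA, the catalytic flavoprotein (ENSG00000073578), was at 3.81, 3.81 and 3.74 log2 RPKM in Ovcar4Parental, 4.16, 4.03 and 4.04 in Ov4Cis, 4.48, 4.11 and 4.30 in Ov4Carbo, 3.62, 3.40 and 3.48 in Ov4Carbo4 and 4.62, 4.68 and 4.66 in Ov4Carbo7. It was called higher in Ov4Cis (0.29, limma adjusted p = 0.0406), Ov4Carbo (0.51, adjusted p = 0.00241) and Ov4Carbo7 (0.87, adjusted p = 2.72e-05) and lower in Ov4Carbo4 (-0.28, adjusted p = 0.0425). The smallest of these, in Ov4Cis and Ov4Carbo4, lost their calls in 9 and 10 of the 15 fits that leave out 1 sample. SDHB was not called against the parental line in any of the 4, and was higher in Ov4Carbo7 than in Ov4Carbo4 by 0.55 (adjusted p = 0.00189). SDHC, the other membrane anchor, was between 4.24 and 4.60 in the line means and was called in 1 of 8 comparisons, Ov4Cis against Ov4Carbo (-0.36, adjusted p = 0.0395). In Ov4Carbo4, then, SDHA and SDHD were lower while SDHC (0.15) and SDHB (-0.26) were not called.

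Genes that moved often lay beside other members that moved, and beside other genes that did. On chromosome 11, 5 of the 7 members (NDUFV1, NDUFS8, NDUFC2, SDHD and ATP5MG) were called lower in Ov4Carbo4 than in Ovcar4Parental. NDUFS3 and COX8A, the first 2 in gene order, were not called. The mean of NDUFS3 was still lower, at 3.56 against 3.78, with no overlap of the samples, and COX8A was at 5.98 against 5.92. On chromosome 19 the first 3 members in gene order, ATP5F1D, NDUFS7 and UQCR11, rose in Ov4Carbo and in Ov4Carbo7, and on chromosome 5 the first 2, SDHA and NDUFS6, did. The 10 expressed protein-coding genes on each side of a member, other members left out, were used as its neighbours (fewer at a chromosome end). The neighbours of NDUFS8 had a median log2 fold change of -0.72 in Ov4Carbo4 against the parental line and 18 of 20 were called lower; for NDUFV1 it was -0.72 with 19 of 20, for SDHD -0.65 with 16 of 20, and for UQCRC1, on chromosome 3, -0.60 with 15 of 20. In Ov4Carbo7 the neighbours of SDHA had a median of 1.33 with 11 of 11 called higher, those of ATP5F1D 0.90 with 17 of 20, those of NDUFS7 0.85 with 18 of 20 and those of UQCR11 0.78 with 19 of 20. Over all genes, 18.0% were called lower in Ov4Carbo4 and 22.2% higher in Ov4Carbo7, each against Ovcar4Parental. The neighbour windows overlap, since the members of a chromosome arm share neighbours.

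Across comparisons, most called members had the sign of their neighbours' median. In Ov4Carbo7 against Ov4Carbo4 this held for 20 of 23, and the absolute neighbour median was 0.56 in the middle of the called members and 0.13 in that of the others. Pearson's r between a member's change and its neighbours' median was 0.62 over the 82 genes and 0.79 without COX7A1 and UQCRHL; the points share libraries and overlapping windows. In Ov4Carbo4 against Ovcar4Parental the sign held for 15 of 17 and in Ov4Carbo7 against Ovcar4Parental for 14 of 17. In Ov4Cis against Ovcar4Parental it held for 8 of 8, with a median absolute neighbour value of 0.30. It held least often in Ov4Cis against Ov4Carbo, for 7 of 10, with r at 0.25 over the 82 genes and 0.46 without COX7A1 and UQCRHL. In the comparisons with the parental line r was 0.33 to 0.40 over the 82 genes and 0.41 to 0.80 without those genes. The sign held for 16 of 17 in Ov4Carbo against Ovcar4Parental, 24 of 30 in Ov4Carbo4 against Ov4Carbo and 12 of 12 in Ov4Carbo7 against Ov4Carbo. Among the exceptions were NDUFAB1, SDHA, COX7A1 and SDHB. NDUFAB1 rose in Ov4Carbo4 by 0.45 beside neighbours at -0.18, and SDHA changed there by -0.28 beside neighbours at 0.10. COX7A1 rose in Ov4Carbo7 by 3.49 beside neighbours at -0.38. SDHB was 0.55 higher in Ov4Carbo7 than in Ov4Carbo4 beside neighbours at -0.09. Agreement of sign was not counted for members without a call, nor for called genes at large. It is therefore not shown to be particular to the members. DNA copy number was not analysed here, and its part in these changes was not tested.

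**Figure D5:**
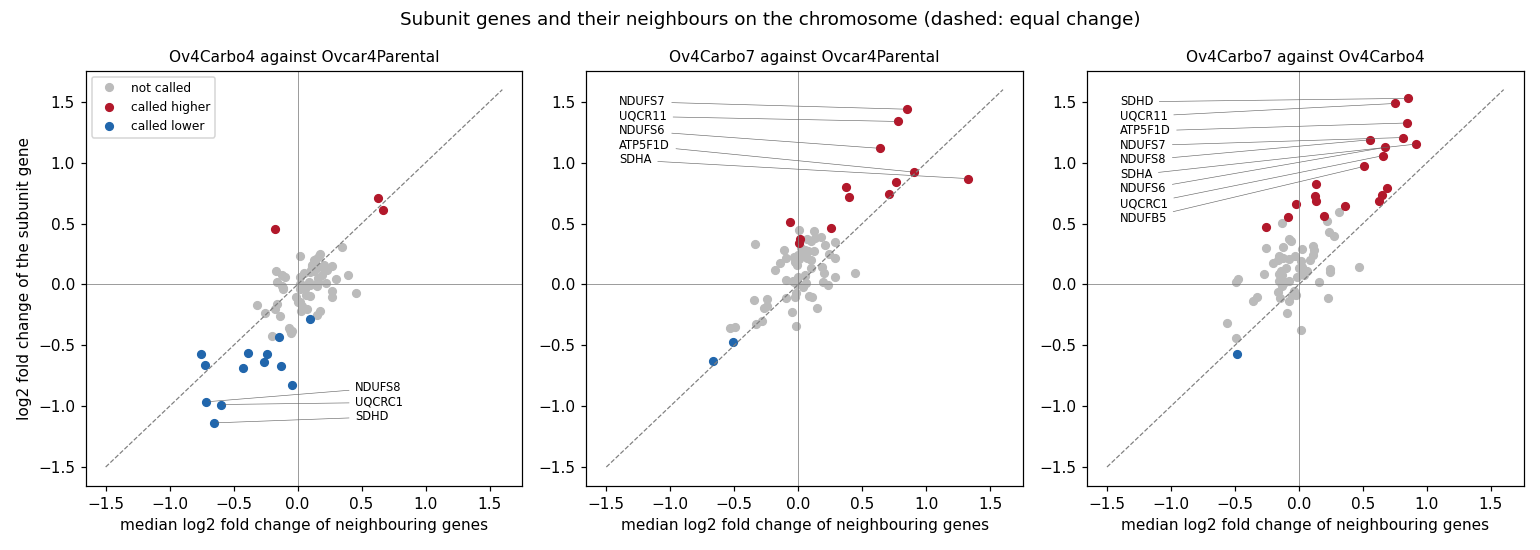
Log2 fold change of each subunit gene (vertical axis) against the median log2 fold change of its neighbouring expressed genes (horizontal axis) in 3 comparisons; points are genes, coloured by limma's call, the dashed line marks equal change, and COX7A1, UQCRHL, NDUFV2 and NDUFA4L2 are left out. SDHD, NDUFS8 and UQCRC1 lie low beside neighbours that are also low in Ov4Carbo4, and NDUFS7, UQCR11 and NDUFS6 lie high beside neighbours that are high in Ov4Carbo7.

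Many members have near-identical processed copies elsewhere in the genome, and reads of gene and copy are hard to tell apart. The table held 46 pseudogene rows for 33 members, and 14 of those rows had a higher mean than the gene they copy. NDUFV2, a core complex I subunit, was at -2.02 log2 RPKM and its copy NDUFV2P1 at 6.86. COX6A1 was at 4.60 and COX6A1P2 at 6.93, ATP5MF at 4.17 and ATP5MFP2 at 6.39, and COX7A2 at 4.58 and COX7A2P2 at 5.06. Some copies were called beside their gene and others were not. In Ov4Carbo4 against the parental line, 11 copies belong to called members, of which 3 were called in the direction of the gene, 2 in the opposite direction and the rest not at all. In Ov4Carbo7 against the parental line 9 of 13 were called, all in the direction of the gene. In Ov4Carbo4 COX7A2P2 changed by -0.40 (limma adjusted p = 0.0077) beside -0.57 for COX7A2, ATP5MGP2 by -0.60 (adjusted p = 0.000996) beside -0.57 for ATP5MG. SDHDP2 (-0.45, adjusted p = 0.104) and ATP5MFP2 (-0.46, adjusted p = 0.0761) were not called there beside SDHD and ATP5MF. In Ov4Cis against the parental line ATP5MC1P5 changed by 1.00 (adjusted p = 0.000404) beside 0.61 for ATP5MC1. ATP5MGL, a protein-coding copy of ATP5MG on chromosome 22, fell in Ov4Carbo4 as well, by 0.83, beside neighbours at -0.05. The copies called in the opposite direction were those of SDHA in Ov4Carbo4: SDHAP1 was 0.50 higher there than in the parental line (adjusted p = 0.0106) and SDHAP3 0.85 higher (adjusted p = 0.0375), while SDHA was lower. In the annotation used here another gene covers 49.1% of the exonic bases of NDUFS7, 48.5% of NDUFB8, 28.4% of NDUFV2 and 21.0% of NDUFA13. How the counting shared such reads was not tested, so levels of these genes are uncertain.

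Genes that help to build the chain were described beside the subunits. Neighbour windows were made for the members only. For genes of this and the following lists, a change shared with nearby genes therefore cannot be seen here. Of 48 assembly factors, 11 were called higher and 0 lower in Ov4Cis against Ovcar4Parental, 17 and 0 in Ov4Carbo, 9 and 10 in Ov4Carbo4, and 8 and 4 in Ov4Carbo7, with medians of 0.07, 0.22, 0.04 and 0.07. The share called was 22.9%, 35.4%, 39.6% and 25.0%, against 36.2%, 34.0%, 39.7% and 42.6% of all genes, so it was near or below that of all genes in each line. COA3, which stabilises newly made COX1, was higher in all 4 lines, by 1.19 in Ov4Cis (limma adjusted p = 2.42e-05), 1.08 in Ov4Carbo (adjusted p = 9.8e-05), 0.63 in Ov4Carbo4 (adjusted p = 0.00279) and 1.16 in Ov4Carbo7 (adjusted p = 2.8e-05). TACO1, the translational activator of COX1, was also higher in all 4, by 0.58 to 0.89. NDUFAF3, a complex I assembly factor, changed by -2.00 in Ov4Carbo4 (adjusted p = 1.05e-06), from 5.16 ± 0.13 to 3.16 ± 0.09. HIGD1A, a hypoxia-induced protein of the inner membrane in the list of 13 cristae and supercomplex genes, rose by 1.02 in Ov4Cis (adjusted p = 0.000805) and changed by -2.13 in Ov4Carbo4 (adjusted p = 2.81e-06).

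The TCA cycle feeds complexes I and II, and those of its genes that were called were more often lower than higher. Of 19 genes, 1 was higher and 5 lower in Ov4Cis, 0 and 4 in Ov4Carbo, 1 and 9 in Ov4Carbo4, and 2 and 7 in Ov4Carbo7, with medians of -0.16, -0.05, -0.23 and -0.05 against 0.02 to 0.07 over all genes. The share called was 31.6%, 21.1%, 52.6% and 47.4%, against 36.2%, 34.0%, 39.7% and 42.6% of all genes, so it was below that of all genes in Ov4Cis and Ov4Carbo. SUCLA2, a subunit of succinate-CoA ligase, was lower in Ov4Cis (-1.39, limma adjusted p = 1.51e-07). The mitochondrial isocitrate dehydrogenase IDH2 was lower in Ov4Carbo (-1.25, adjusted p = 9.43e-05), and MDH2, malate dehydrogenase, in Ov4Carbo (-0.68, adjusted p = 0.00147). DLST, of the 2-oxoglutarate dehydrogenase complex, was lower in Ov4Carbo7 (-0.98, adjusted p = 7.56e-06). The 4 SDH genes belong to the cycle and were counted with the chain.

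Regulators and carriers showed no common direction. Of 20 regulators of mitochondrial biogenesis, 2 were higher and 2 lower in Ov4Cis, 2 and 3 in Ov4Carbo, 4 and 4 in Ov4Carbo4, and 4 and 5 in Ov4Carbo7. The share called was 20.0%, 25.0%, 40.0% and 45.0%, near or below that of all genes. PPARGC1A, the coactivator PGC-1 alpha, went both ways: it was at 2.32 ± 0.67 in Ovcar4Parental, lower in Ov4Cis (-1.11, limma adjusted p = 0.0235), in Ov4Carbo (-1.01, adjusted p = 0.0385) and in Ov4Carbo4 (-1.77, adjusted p = 0.00141), and higher in Ov4Carbo7 (1.22, adjusted p = 0.0125). POLG2, the accessory subunit of the mitochondrial DNA polymerase, was higher in Ov4Carbo (0.95, adjusted p = 0.000213), and MTERF1, a mitochondrial transcription termination factor, was lower in Ov4Carbo7 (-1.10, adjusted p = 7.81e-05). Of 15 genes for electron carriers and ubiquinone synthesis, at most 3 were higher and 2 lower in a line. Ov4Cis had 6.67% of this list called (36.2% of all genes) and Ov4Carbo 20.0% (34.0%). Ov4Carbo4 had 20.0% (39.7%) and Ov4Carbo7 33.3% (42.6%), so the list was below all genes each time. COQ4 was higher in Ov4Carbo4 (0.65, limma adjusted p = 0.00335).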

How the data were processed

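Expression was measured by RNA sequencing in 15 samples of 5 OVCAR4 lines, 3 a line. The values are the authors' deposited log2 RPKM after conditional quantile normalization, per the file headers, for 16604 genes. Reads were aligned with BWA 0.7.15-r1140, and HTSeq and hg19 (GRCh37) are also named, per the submitters' processing notes. The annotation counted, and any filter on low genes before deposit, are not given in the sources used here. Depth is unknown, so no counting interval is given.

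Gene names came from tables matched by Ensembl identifier (16448 of 16604 genes matched a symbol), and gene order from GENCODE 29. The log2 values were fitted as deposited with limma 3.58.1 in R 4.3.3, with 1 mean per line over all 15 samples, 8 comparisons and an F-test. P-values were adjusted by Benjamini-Hochberg over all 16604 genes in each comparison, and calls are genes with an adjusted p under 0.05. Standard errors (SE) use limma's moderated variance and SDs are over 3 replicates. The fit was also run on simulated data for Ov4Cis against Ovcar4Parental over 16604 genes. It recovered 10 of 100 genes changed by 0.5 log2 and 65 of 100 changed by 1, with 2 false calls. Only these genes were changed and the noise was independent between genes, while 36.2% of genes were called in the data. The simulated rates therefore do not carry over to the calls here.

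Named members are, per comparison, up to 3 called rises and 3 called falls of largest size whose groups do not overlap and whose higher mean is at least 1, members called in the same direction in all 4 resistant lines, isoform pairs, the SDH genes, ATP5IF1, and the highest and lowest of each complex. Other genes of the pathway lists are named by the same rule with 2 per direction. Members named beyond this were chosen after their values were seen, as were the ribosomal protein lists and the neighbour windows of 10 genes each side. The members and lists were chosen with earlier results of these data known. Alternatives left out each sample, used only the groups compared, added a title series or replicate term, and used stricter thresholds.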

Additional observations from a re-analysis of the deposited data

Results flagged for a closer look

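SDHA, the catalytic subunit of complex II, changed in opposite directions in the resistant lines. Against Ovcar4Parental it was 0.51 higher in Ov4Carbo and it changed by -0.28 in Ov4Carbo4, and Ov4Carbo4 against Ov4Carbo was -0.79 (limma adjusted p = 8.94e-05). It was 0.87 higher in Ov4Carbo7, and Ov4Carbo7 against Ov4Carbo4 was 1.15 (adjusted p = 2.34e-06). In Ov4Cis it was 0.29 higher, with every sample above the parental ones and every Ov4Carbo4 sample below them, a difference of -0.58 between the Ov4Carbo4 and Ov4Cis effects that was not tested. NDUFB5, a small complex I subunit, was 0.38 higher in Ov4Cis and changed by -0.68 in Ov4Carbo4, a difference of -1.06 that was not tested. Groups of 3 samples are too small for a check of single outlying samples.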

How the results depend on the processing

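The 134 called values of single members were refitted under 3203 alternative fits in all: 2776 stayed on the same side of the threshold, 426 kept their direction without the call, and 1 reversed, UQCRHL in Ov4Carbo7 against Ovcar4Parental, at 0.90 (adjusted p = 0.593) with a title series term. The numbers of members called in Ov4Cis, Ov4Carbo, Ov4Carbo4 and Ov4Carbo7 against Ovcar4Parental were 1, 9, 10 and 9 at an adjusted p under 0.01, and 1, 3, 2 and 5 with a change of at least 1. In Ov4Carbo4 against Ov4Carbo, Ov4Carbo7 against Ov4Carbo, Ov4Carbo7 against Ov4Carbo4 and Ov4Cis against Ov4Carbo, 8, 1, 10 and 2 changed by at least 1. The shares of all genes were 14.2%, 13.3%, 20.9% and 13.8% in that order. Shares of all genes were not computed at 0.01 or for the alternative fits. At 0.01, Ov4Carbo4 against Ov4Carbo gave 19, Ov4Carbo7 against Ov4Carbo 7 and Ov4Cis against Ov4Carbo 5. With only the 2 groups compared in the fit, Ov4Carbo against Ovcar4Parental, Ov4Carbo7 against Ov4Carbo and Ov4Cis against Ov4Carbo gave 5 each. A title series term gave 29, 15, 6 and 22 for Ov4Carbo against Ovcar4Parental, Ov4Carbo4 against Ov4Carbo, Ov4Carbo7 against Ov4Carbo and Ov4Cis against Ov4Carbo. It moved the median change to 0.27 in Ov4Carbo4 and 0.50 in Ov4Carbo7 against Ovcar4Parental, and to -0.04 and 0.15 in Ov4Carbo4 and Ov4Carbo7 against Ov4Carbo. Only Ov4Carbo has samples of both series, so the term rests on its replicate 1 against its replicates 2 and 3. The cause was not tested.

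Leaving out 1 sample gave 1 to 13 calls in Ov4Cis, 10 to 29 in Ov4Carbo, 12 to 23 in Ov4Carbo4 and 11 to 27 in Ov4Carbo7 against Ovcar4Parental, 22 to 40 in Ov4Carbo4 and 8 to 18 in Ov4Carbo7 against Ov4Carbo, 23 to 35 between the clones, 6 to 22 in Ov4Cis against Ov4Carbo, and 33 to 45 in the F-test. The median change in Ov4Carbo4 against Ov4Carbo was -0.51 without Ov4Carbo replicate 1 and -0.14 without replicate 2. With a replicate block the counts were 5, 14, 16 and 13 against Ovcar4Parental in the order above, 25 and 12 against Ov4Carbo, 23 between the clones, 8 in Ov4Cis against Ov4Carbo and 34 in the F-test. Whether the numbers pair the samples was not settled. Same-numbered deviations correlated above 0.1 in 12 of 30 same-numbered pairs of samples, with r from -0.497 to 0.535. For Ovcar4Parental with Ov4Cis r was 0.535, 0.072 and 0.273 in replicates 1, 2 and 3, and with Ov4Carbo7 0.373, -0.085 and 0.25. All 3 pairs of Ov4Cis with Ov4Carbo7, which were not compared, were above 0.1. Pairs with different numbers were not computed. Sequencing depth is unknown and limits what can be said of low genes.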
